A study of Homo sapiens with 4 samples.

Results

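The genes described here are 9 calcium/calmodulin-dependent protein kinases (CAMK1, CAMK1D, CAMK1G, CAMK2B, CAMK2D, CAMK2G, CAMK4, CAMKK1 and CAMKK2) and CAMK2N1, which encodes an inhibitor protein of CaMKII. They are 10 of the 36525 genes in the deposited table, and all 10 were found in it by their current symbols. They were measured in LM2 cells, a lung metastatic clonal line derived from MDA-MB-231, which is itself a mesenchymal breast cancer line. The 2 control libraries and the 2 libraries with knockdown of hnRNPM, an RNA-binding regulator of alternative splicing, were made from cells collected 48 h after plating. The labels call the silencing agent an shRNA in the culture protocol and an siRNA in the treatment field, give no agent for the control cells, and leave unsaid whether replicates were grown as separate cultures. Where p-values are given for other pathway genes, they cover only sample-to-sample spread, possibly technical. All libraries come from 1 clonal line.

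When calcium rises in a cell it binds calmodulin, and the complex opens the autoinhibited kinases of this family. CaMKI and CaMKIV are activated further by the upstream kinases CaMKK1 and CaMKK2, which makes a cascade, and CaMKK2 also activates AMPK, a sensor of energy state. CaMKII assembles into multi-subunit rings in which subunits phosphorylate each other and so stay active after calcium falls. CaMKII alpha and beta are best known from neurons, whereas the gamma and delta forms are found in many tissues.

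Values are RPKM, a read density per transcript length and per total of reads, so levels can be set side by side between genes of different length. Most low values (79.8%) are whole multiples of what 1 read is worth, from which reads per gene were estimated. The estimated totals ran from 16.5 M to 26.6 M reads per library. HNRNPM itself measured 88.6 and 102 RPKM in control cells and 11.5 and 12.95 RPKM after knockdown. All 6 markers of a mesenchymal breast cancer line (VIM, CD44, AXL, CAV1, SPARC and MSN) were above 50 RPKM in all 4 libraries. The 6 luminal breast markers summed to 7.78 and 8.22 RPKM in control cells and 8.26 and 9.40 RPKM after knockdown. Of these, PGR was listed at 0 in all 4 libraries and ESR1 was below 0.04 RPKM, while KRT19, GATA3, EPCAM and ERBB3 each reached 1 RPKM in at least 1 library. ERBB3 measured 0.647 and 0.726 against 1.40 and 1.53 RPKM, and the part of these markers in the results was not tested. Summed over 4 genes each, leukocyte markers lay between 0.0112 and 0.036 RPKM. Fibroblast markers (DCN, LUM, PDGFRA and PDGFRB) summed to 0.266 and 0.345 RPKM in control cells and 2.81 and 2.96 RPKM after knockdown, with none of the 4 at 0 throughout, and their part in the results was not tested. Neuron markers (RBFOX3, SYP, MAP2 and ENO2) summed to 13.3 and 15.7 against 8.59 and 9.27 RPKM, nearly all of it from ENO2, with none of the 4 at 0 throughout, and their part was not tested either.

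The members were selected on what their RPKM values did in this same contrast of knockdown and control, so their differences between groups are given as descriptions, without p-values. In bulk RNA, fewer cells that express a gene and less RNA per cell cannot be told apart. Over all 10 members, 7 were lower and 1 was higher in both knockdown libraries than in both control libraries, and 2 overlapped. Among the 31636 genes with any value above 0, the groups did not overlap for 52.1%, with 29.6% lower and 22.5% higher. The median log2 fold change, the knockdown mean minus the control mean of log2(RPKM + 0.5), was −0.35 over the members and −0.07 over the 13627 genes with a mean of at least 1 RPKM. Of the members, 6 passed that filter. CAMK1G, CAMK2B, CAMK4 and CAMKK1 did not, and they are described with the others.

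**Figure D1:**
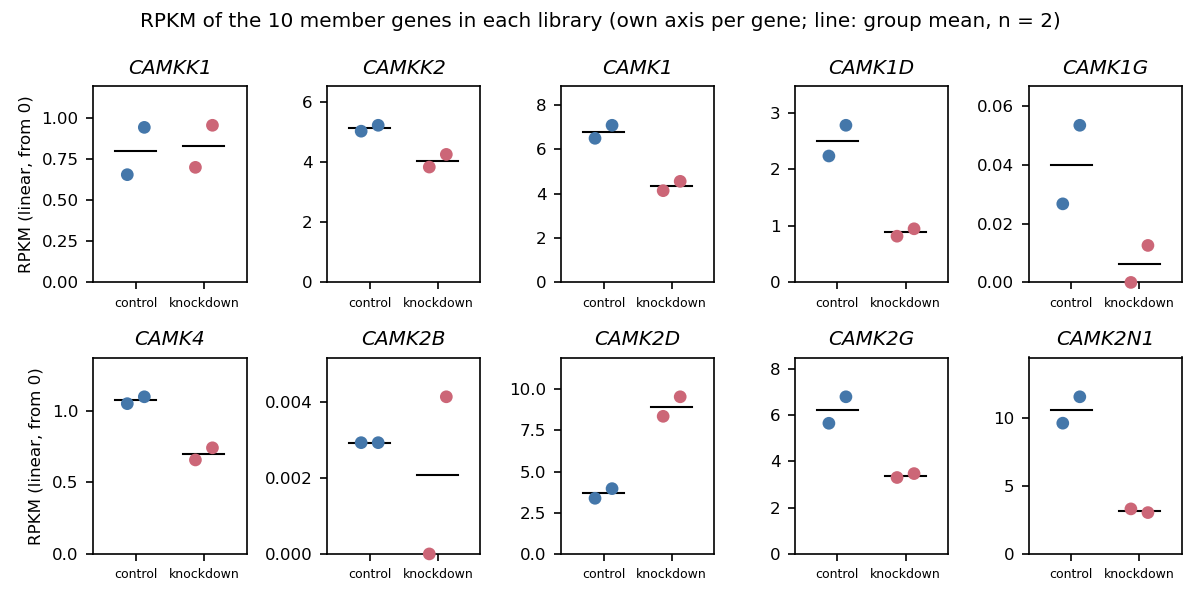
RPKM of each member gene (vertical axis, linear, a separate range per gene) in the 2 control and 2 knockdown libraries; points are libraries and lines are group means. CAMK2D is higher in both knockdown libraries, at 8.36 and 9.54 RPKM against 3.38 and 3.97 RPKM, whereas CAMK2N1, CAMK1D, CAMK2G, CAMK1, CAMKK2, CAMK4 and CAMK1G are lower, and CAMKK1 and CAMK2B overlap.

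The 4 genes for CaMKII subunits resemble each other in sequence, which matters here because how the authors treated reads that match several genes is not stated in the labels. The longest identical stretches between coding sequences of GENCODE 29 transcripts are shown to make the possible sharing of reads visible. They have lengths of 23 bases between CAMK2D and CAMK2G, 26 bases between CAMK2B and CAMK2D and 23 bases between the inhibitor genes CAMK2N1 and CAMK2N2.
CAMK2D and CAMK2G: cacagggacctgaagcctgagaa
CAMK2B and CAMK2D: tccatgatgcacagacaggagactgt
CAMK2N1 and CAMK2N2: cccaagctgggccagatcggccg
The stretch shared by CAMK2B and CAMK2D spans the codons around the threonine that CaMKII subunits phosphorylate in each other, which is part of the regulatory segment of the kinase. The longest stretch within the CaMKII genes was 35 bases, between CAMK2A and CAMK2B. Among the CaMKI and CaMKIV genes it was 32 bases, between CAMK1 and CAMK1G, and between CAMKK1 and CAMKK2 it was 20 bases. Read length is not stated in the labels. Over whole transcripts, noncoding parts included, CAMK1D and CAMK4 share a stretch of 41 bases, against 13 within their coding sequences. Reads no longer than a shared stretch can match both genes exactly.

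CAMK2D, which encodes the delta subunit of CaMKII, was the only member higher in both knockdown libraries. It measured 3.38 and 3.97 RPKM in control cells (1042 and 1223 reads) and 8.36 and 9.54 RPKM after knockdown (1825 and 2084 reads). The groups were far apart, with the lowest knockdown value more than 2 times the highest control value. Group means were 3.67 ± 0.415 and 8.95 ± 0.839 RPKM (SD, n = 2), a ratio of 2.44, and the log2 fold change was 1.18 ± 0.18 (SE of the fit over all tested genes). A mean at least 2-fold higher was found for 4.3% of tested genes, and 2.08% of tested genes had a higher log2 fold change than CAMK2D.

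CAMK2G, which encodes the gamma subunit, went the other way. It measured 5.64 and 6.79 RPKM in control cells and 3.30 and 3.47 RPKM after knockdown. Both knockdown values lay below both control values, and the means of 6.21 ± 0.809 and 3.38 ± 0.1198 RPKM (SD, n = 2) gave a log2 fold change of −0.78 ± 0.18. The antisense gene CAMK2G-AS1 shares 213 exon bases with CAMK2G, 3.14% of its exon length, and was itself at 11.4 and 14.4 against 5.46 and 6.82 RPKM. Whether the counting used strand is not stated in the labels, so reads in the shared stretch cannot be told apart.

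The beta subunit gene CAMK2B was close to silent. Its values correspond to 1 read in each control library, no read in the first and 1 read in the second knockdown library, so no fold is given. CAMK2A, the alpha subunit gene and not among the members, had 3 and 2 reads in control cells and 5 and 4 reads after knockdown.

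Within each library the CaMKII genes can be compared without regard to how that library was scaled. In the control libraries CAMK2D made up 37.4% and 36.8% of the summed RPKM of CAMK2A, CAMK2B, CAMK2D and CAMK2G, and CAMK2G 62.4% and 63.1%. In the knockdown libraries CAMK2D made up 71.5% and 73.2%, and CAMK2G 28.2% and 26.6%. The order of the 2 genes was thus opposite in the groups, with a ratio of CAMK2D to CAMK2G of 0.591 ± 0.0102 in control cells and 2.64 ± 0.154 after knockdown (SD, n = 2). The summed level of the 4 genes was 9.04 and 10.8 RPKM in control cells and 11.7 and 13.04 RPKM after knockdown. These sums lay closer together than the values of CAMK2D or CAMK2G taken alone. CAMK2 transcripts are also spliced into several forms, which values per gene do not resolve.

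**Figure D2:**
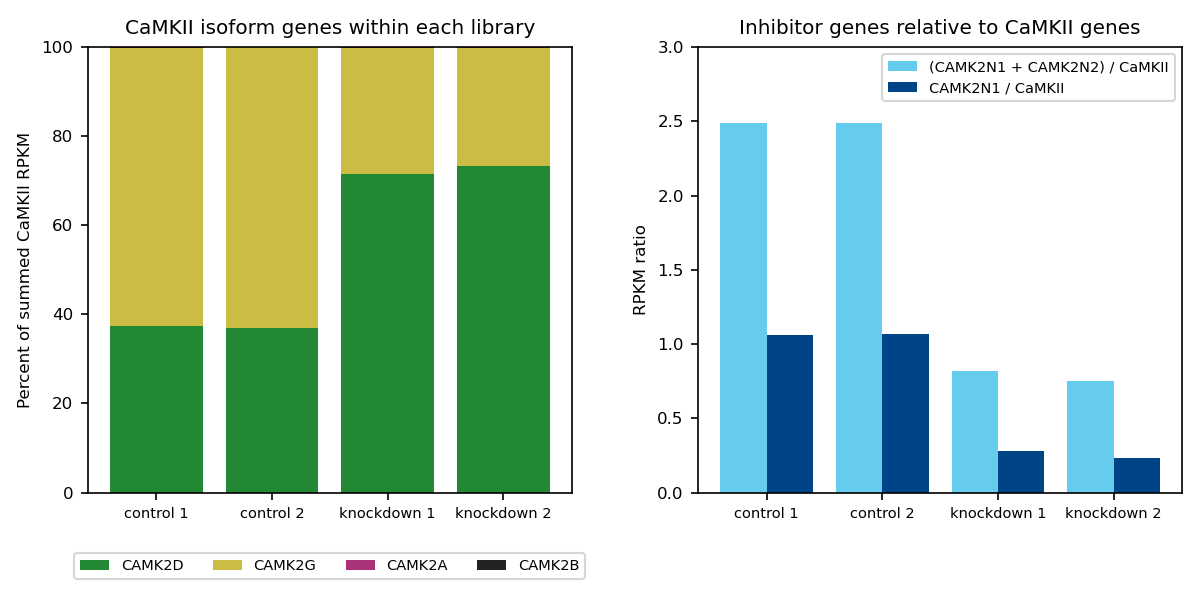
Left, share of each CaMKII gene in the summed RPKM of the 4 CaMKII genes (vertical axis, percent) for each library; right, RPKM of the inhibitor genes divided by that sum (vertical axis, ratio). CAMK2D takes 36.8% to 37.4% in control cells and 71.5% to 73.2% after knockdown, and the inhibitor ratio is 2.49 in both control libraries and 0.821 and 0.749 after knockdown. CAMK2A and CAMK2B are too low to be seen.

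The RefSeq sequences around the annotated start sites of CAMK2D and CAMK2G are shown because the 2 genes went in opposite directions and differ in GC content there (68.3% of bases for CAMK2D and 83% for CAMK2G). Each window holds 250 bases before and 50 bases after the start, in build GRCh38.p14, on the minus strand in both cases. Capitals mark matches to the GC box GGGCGG on either strand, with overlapping matches counted.
CAMK2D, chr4:113761689-113761988: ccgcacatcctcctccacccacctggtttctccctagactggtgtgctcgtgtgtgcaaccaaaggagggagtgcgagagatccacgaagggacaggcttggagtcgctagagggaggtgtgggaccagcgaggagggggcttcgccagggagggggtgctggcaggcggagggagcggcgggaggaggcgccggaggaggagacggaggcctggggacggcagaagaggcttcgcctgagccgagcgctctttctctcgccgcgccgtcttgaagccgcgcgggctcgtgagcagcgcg
CAMK2G, chr10:73874506-73874805: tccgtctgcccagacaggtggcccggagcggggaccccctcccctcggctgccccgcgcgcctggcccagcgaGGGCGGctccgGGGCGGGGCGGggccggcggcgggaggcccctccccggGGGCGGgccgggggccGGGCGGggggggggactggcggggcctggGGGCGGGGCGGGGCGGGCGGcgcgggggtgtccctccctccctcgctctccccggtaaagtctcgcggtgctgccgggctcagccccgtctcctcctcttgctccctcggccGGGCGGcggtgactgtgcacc
The CAMK2G window holds 10 matches to the GC box and the CAMK2D window 0. Of the members that were lower, CAMK1D and CAMK1G also have 0 matches, CAMK1 has 3, CAMKK2 has 8, and the CAMK4 windows have 0, 1 and 5. Of the members that overlapped, CAMK2B has 4 and the CAMKK1 windows have 7 and 0. A link between matches and direction was not tested. Over 35116 RefSeq windows of the same length, 44.95% hold at least 1. The full cyclic AMP response element TGACGTCA, the site of the CaMK substrate CREB, has 0 matches in both windows, and 1.85% of all windows hold it. Letters in a window say nothing of whether a factor binds there. CAMK2N1 is not in the RefSeq table of windows.

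CAMK2N1 encodes a small protein that binds and inhibits active CaMKII. It had the lowest log2 fold change among the members. It measured 9.59 and 11.5 RPKM in control cells (1050 and 1262 reads) and 3.30 and 3.03 RPKM after knockdown (256 and 235 reads). Every knockdown value was below 0.4 times every control value. The means of 10.6 ± 1.37 and 3.17 ± 0.191 RPKM (SD, n = 2) gave a 3.33-fold lower level and a log2 fold change of −1.59 ± 0.18, and 0.851% of tested genes had a lower one. Of the 6 members past the filter, CAMK2N1 and CAMK1D had means at least 2-fold lower, which held for 6.63% of all tested genes.

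Its relative CAMK2N2, the second CaMKII inhibitor gene and not a member, fell as well. It measured 12.9 and 15.2 RPKM in control cells and 6.29 and 6.73 RPKM after knockdown, a log2 fold change of −1.05 ± 0.18 (limma, adjusted p = 3.45e-08; 0.00368 to 0.0196 when 1 library was left out). In GENCODE 29, 27.4% of its exon bases are shared with EEF1AKMT4 on the opposite strand, so part of its reads cannot be assigned without strand. Together the 2 inhibitor genes reached 22.5 and 26.8 RPKM in control cells and 9.59 and 9.76 RPKM after knockdown. Divided by the summed CaMKII genes of the same library, this was 2.49 in each control library and 0.821 and 0.749 after knockdown. In RPKM, the inhibitor genes thus exceeded the CaMKII genes in control cells and lay below them after knockdown. Which of them is higher within a library also depends on the exon lengths used for RPKM.

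The CaMKI genes among the members, CAMK1, CAMK1D and CAMK1G, measured lower in both knockdown libraries than in both control libraries. The values of CAMK1 may hold reads of an overlapping gene and CAMK1G had very few reads, as described below. CAMK1D, which encodes CaMKI delta, measured 2.24 and 2.78 RPKM in control cells and 0.817 and 0.948 RPKM after knockdown, without overlap. The means of 2.51 ± 0.384 and 0.883 ± 0.0927 RPKM (SD, n = 2) gave a 2.84-fold lower level and a log2 fold change of −1.12 ± 0.19. The offset of 0.5 understates low genes: with 0.1 the value for CAMK1D was −1.40.

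CAMK1, which encodes CaMKI alpha, measured 6.50 and 7.09 RPKM in control cells and 4.14 and 4.56 RPKM after knockdown, again without overlap, and the log2 fold change was −0.59 ± 0.18. In GENCODE 29, 80.1% of the exon bases of CAMK1 are shared with the DNA repair gene OGG1 on the opposite strand. OGG1 measured 6.11 and 6.75 against 4.81 and 5.30 RPKM, lower in both knockdown libraries too, and without strand the values of both genes may hold each other's reads. CAMK1G, which encodes CaMKI gamma, corresponded to 3 and 6 reads in control cells and 0 and 1 read after knockdown. That is too few for a fold.

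CAMK4 encodes CaMKIV, a nuclear kinase of CREB best known from neurons and T cells. It measured 1.05 and 1.10 RPKM in control cells (612 and 640 reads) and 0.657 and 0.742 RPKM after knockdown (271 and 306 reads). Both knockdown values were below both control values. The means of 1.07 ± 0.034 and 0.699 ± 0.06 RPKM (SD, n = 2) correspond to a 1.54-fold lower level and a log2 fold change of −0.39. No SE is given because CAMK4 did not pass the filter. Its exons are long, so the reads behind it outnumber those of CAMKK1.

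Of the upstream kinases, CAMKK2 was the more abundant. It measured 5.03 and 5.22 RPKM in control cells and 3.84 and 4.26 RPKM after knockdown. The groups did not overlap, and the log2 fold change was −0.31 ± 0.18. CAMKK1 measured 0.655 and 0.943 RPKM in control cells and 0.6999 and 0.956 RPKM after knockdown. Its groups overlapped, and the means of 0.799 ± 0.203 and 0.828 ± 0.181 RPKM (SD, n = 2) differed by less than the spread between libraries. Its log2 fold change of 0.03 turned to −0.13 without control replicate 1 and to −0.11 without knockdown replicate 2. CAMKK2 made up 88.5% and 84.7% of the summed CAMKK RPKM in control cells and 84.6% and 81.7% after knockdown.

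By mean level in the control libraries the order from the top was CAMK2N1, CAMK1, CAMK2G, CAMKK2, CAMK2D, CAMK1D, CAMK4, CAMKK1, CAMK1G and CAMK2B. Of the neighbours in that order among the first 8, CAMK1 and CAMK2G overlapped in their library values and the others did not. In the knockdown libraries CAMK2D came first, followed by CAMK1, CAMKK2, CAMK2G, CAMK2N1, CAMK1D, CAMKK1, CAMK4, CAMK1G and CAMK2B. There the values of CAMK1 and CAMKK2, of CAMK2G and CAMK2N1, of CAMK1D and CAMKK1, of CAMKK1 and CAMK4, and of CAMK1G and CAMK2B overlapped between neighbours. Summed over the 9 kinases the level was 24.5 and 27.9 RPKM in control cells and 21.8 and 24.5 RPKM after knockdown.

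**Figure D3:**
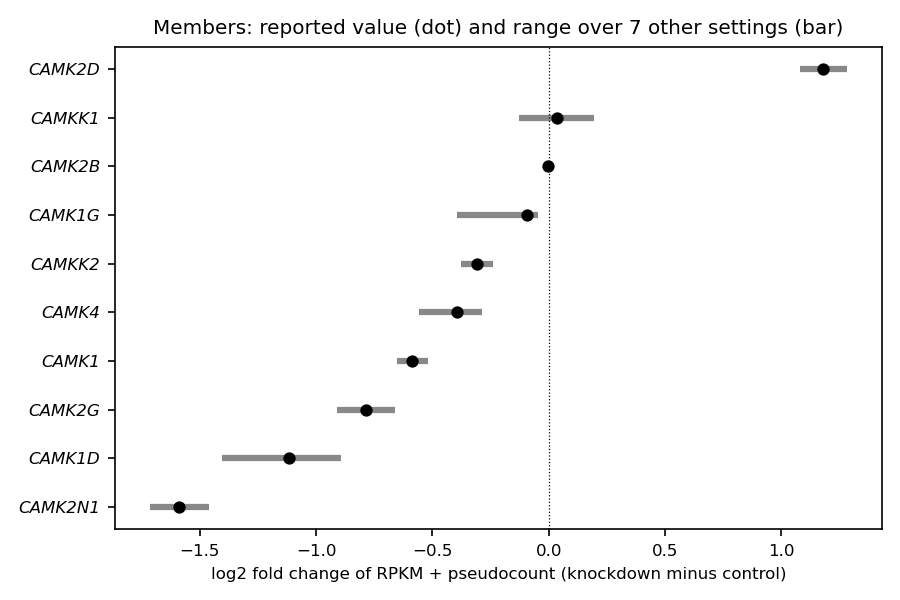
Log2 fold change (horizontal axis, knockdown minus control) of each member; dots are the reported values and bars run from the lowest to the highest value over 7 other settings (2 other pseudocounts, median-ratio scaling and each library left out). CAMK2D stays between 1.08 and 1.28 and CAMK2N1 between −1.71 and −1.46, while the bar of CAMKK1 spans 0.

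By distance over the 4 libraries, on log2(RPKM + 0.5) minus the control mean, the tested genes nearest to CAMK2D were MAFK (distance 0.0194), PPP2R1B (0.0239) and PGRMC2 (0.0339). The nearest to CAMK2N1 were NUDCD2 (0.0617), MCU (0.0811) and FAM43A (0.0833). With 4 libraries in 2 groups, such a distance reflects little more than a similar log2 fold change.

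The surrounding pathway was described with 7 lists of calcium and calmodulin signalling, which hold none of the members. Of 131 genes listed, 120 were in the table and 65 passed the filter. Calls numbered 7 upward and 15 downward, and 43 genes did not pass (limma, Benjamini-Hochberg adjusted p below 0.05). Calls made up 36.4% of all tested genes, with 14.7% higher and 21.8% lower, and 33.8% of the pathway genes. The median log2 fold change of the 65 genes was −0.01, against −0.07 over all tested genes. After median-ratio scaling of the libraries 25 pathway genes rose and 22 fell, against 30.8% higher and 30.2% lower among all genes. That scaling moved the median of all genes by less than 0.1, while the median SE of the tested genes went from 0.175 to 0.054. The SE values given in the text are those before this scaling and hold the difference in depth between libraries of a group. Of the 22 calls, 12 held in each of the 4 fits that left out 1 library, 19 held without a variance trend (ATF1, MEF2D and STIM2 were lost), and 1 held when no filter was used and 31636 genes shared the fit.

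**Figure D4:**
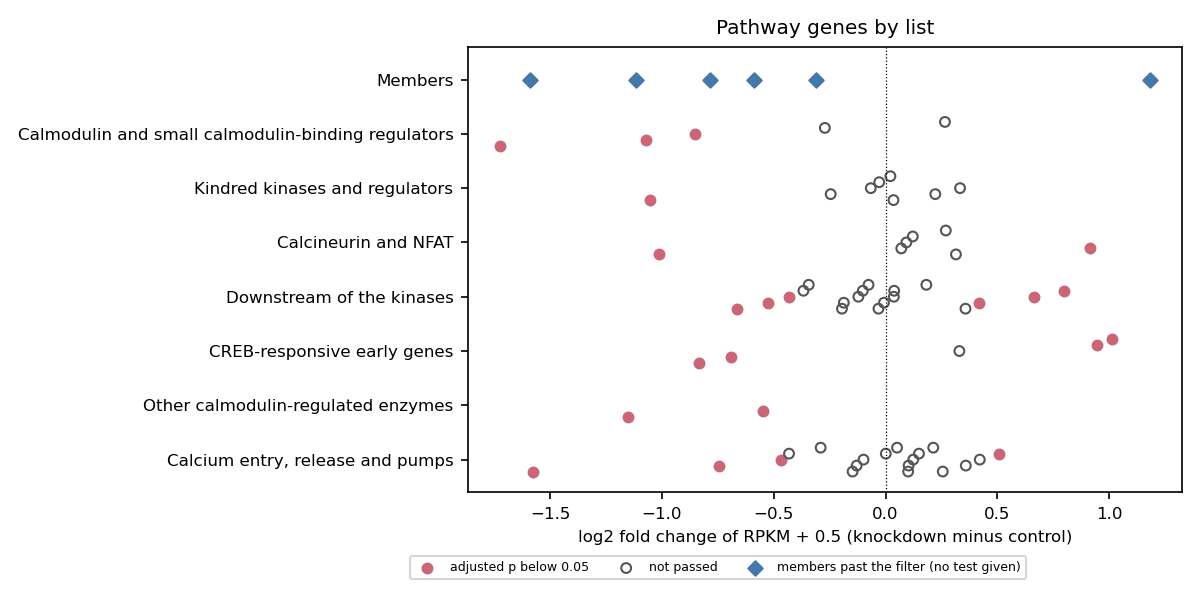
Log2 fold change (horizontal axis, knockdown minus control) of the tested genes of each pathway list; filled circles passed limma at an adjusted p below 0.05, open circles did not, and diamonds are the 6 members past the filter, for which no test is given. The lists hold 7 genes that rose and 15 that fell, with NRGN and MCU farthest to the left.

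Calmodulin is the calcium sensor of these kinases. Its gene CALM2 measured 18.0 and 20.4 against 21.7 and 24.6 RPKM (limma adjusted p = 0.235), and CALM3 measured 133.9 and 153.9 against 111 and 127 RPKM (limma adjusted p = 0.203). CALM2 and CALM3 did not pass, and both passed after median-ratio scaling (adjusted p = 0.00127 upward and 0.00343 downward). Reads that match processed copies of calmodulin genes elsewhere in the genome may be split between them.

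Of the small proteins that bind or resemble calmodulin, the genes NRGN and CALML4 fell. NRGN, which encodes the calmodulin-binding protein neurogranin, fell from 11.6 and 14.02 to 3.13 and 3.94 RPKM (−1.72 ± 0.18, limma adjusted p = 8.6e-21). The calmodulin-like gene CALML4 fell from 1.497 and 1.85 to 0.606 and 0.801 RPKM (−0.85 ± 0.20, adjusted p = 0.000167). In GENCODE 29, 64.7% of the exon bases of CALML4 are shared with PIAS1 on the opposite strand, which measured 3.84 and 4.70 against 2.65 and 2.76 RPKM. A larger part, 82.9%, is shared with the gene AC107871.1 on the same strand, so those reads cannot be told apart even with strand.

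Among 8 tested kindred kinases and their regulators, CAMK2N2 fell and 7 did not pass. These 7 include MYLK, a myosin light chain kinase (2.19 and 2.49 against 2.69 and 2.92 RPKM, limma adjusted p = 0.354), EEF2K, the calmodulin-dependent kinase of elongation factor 2 (3.76 and 4.13 against 3.09 and 3.42 RPKM, adjusted p = 0.287), and DCLK2, a doublecortin-like kinase (1.74 and 2.12 against 2.45 and 2.65 RPKM, adjusted p = 0.148). All 3 passed after median-ratio scaling (adjusted p = 0.0108, 0.0342 and 0.00759). PNCK and CAMKV, other genes of the family, were below 0.02 RPKM in all 4 libraries, with CAMKV listed at 0.

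Calcineurin is the phosphatase that calmodulin activates, and NFAT proteins are its substrates. Of 7 tested genes of this list, 1 rose, 1 fell and 5 did not pass. NFAT5, the family member that responds to osmotic stress, rose from 4.32 and 4.94 to 8.55 and 9.82 RPKM (0.92 ± 0.18, limma adjusted p = 1.99e-06). NFATC3 fell from 4.40 and 5.01 to 1.94 and 2.21 RPKM (−1.01 ± 0.18, adjusted p = 2.01e-07). In GENCODE 29, 31.8% of the exon bases of NFATC3 are shared with an antisense gene and 15.7% with a gene on the same strand. The catalytic subunit gene PPP3CA (9.45 and 10.98 against 12.01 and 13.6 RPKM, adjusted p = 0.151) and the calcineurin regulator RCAN3 (3.52 and 4.35 against 4.68 and 4.98 RPKM, adjusted p = 0.231) did not pass, and both passed upward after median-ratio scaling (adjusted p = 0.00135 and 0.00962).

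Genes that act downstream of the kinases went both ways, with 3 that rose, 3 that fell and 13 that did not pass among 19 tested. The class IIa histone deacetylases leave the nucleus when CaMK phosphorylates them. HDAC5 rose from 2.63 and 3.05 to 5.15 and 5.46 RPKM (0.80 ± 0.18, limma adjusted p = 4.9e-05) and HDAC9 from 2.61 and 2.98 to 4.44 and 4.98 RPKM (0.66 ± 0.18, adjusted p = 0.00102). The other two of this class are HDAC4 and HDAC7. HDAC4, below the filter and so not tested, measured 0.952 and 1.09 against 0.0612 and 0.0784 RPKM (about 533 and 611 against 24 and 31 reads), without overlap, and HDAC7 measured 5.50 and 6.03 against 4.79 and 5.22 RPKM (adjusted p = 0.427). Both were named after their values were seen. CRTC1, a coactivator of CREB, fell from 1.87 and 2.22 to 1.04 and 1.16 RPKM (−0.66 ± 0.19, adjusted p = 0.00279), and CREM, a relative of CREB, from 2.13 and 2.15 to 1.32 and 1.35 RPKM (−0.52 ± 0.19, adjusted p = 0.0198). The third that rose was ATF1 (0.42, adjusted p = 0.0481) and the third that fell MEF2D (−0.43, adjusted p = 0.0406), both named after their values were seen. HDAC9 did not pass without control replicate 1 or knockdown replicate 2 (adjusted p up to 0.127), CRTC1 without control replicate 2 or knockdown replicate 1 (up to 0.0805), and CREM, ATF1 and MEF2D failed in all 4 such fits (adjusted p from 0.0643 to 0.446).

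Of 5 tested early genes that respond to CREB, 2 rose, 2 fell and 1 did not pass. BDNF, a neurotrophin gene, rose from 4.02 and 4.42 to 8.36 and 8.83 RPKM (0.95 ± 0.18, limma adjusted p = 7.96e-07), and ATF3, a stress-induced transcription factor gene, from 1.06 and 1.37 to 2.70 and 3.20 RPKM (1.01 ± 0.19, adjusted p = 9.03e-07). EGR1, an immediate early transcription factor gene, fell from 1.79 and 2.01 RPKM to 0.846 RPKM in both knockdown libraries (−0.83 ± 0.20, adjusted p = 0.00018), and the AP-1 subunit gene JUNB from 10.2 and 11.8 to 5.54 and 7.84 RPKM (−0.69 ± 0.18, adjusted p = 0.000482). JUNB passed without knockdown replicate 2 and failed in the other 3 fits that left out a library (adjusted p up to 0.350). BDNF shares 9.06% of its exon bases with its antisense gene BDNF-AS, which measured 2.05 and 2.28 against 4.86 and 5.36 RPKM, so reads in the shared stretch cannot be told apart.

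Other enzymes that calmodulin regulates were mostly below the filter. ITPKB, an inositol trisphosphate kinase gene, fell from 1.92 and 2.36 to 0.690 and 0.676 RPKM (−1.15 ± 0.20, limma adjusted p = 9.49e-08). ADCY3, an adenylate cyclase gene, fell from 8.89 and 10.03 to 6.04 and 6.55 RPKM (−0.55 ± 0.18, adjusted p = 0.00684). These were the 2 tested of 11 in the list. ADCY3 passed without control replicate 1 and failed in the other 3 fits that left out a library (adjusted p up to 0.290). It shares 24.6% of its exon bases with CENPO on the opposite strand, which measured 11.7 and 13.3 against 11.1 and 12.1 RPKM.

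Of 19 tested genes for calcium entry, release and pumps, 1 rose, 3 fell and 15 did not pass. MCU, the pore subunit of the mitochondrial calcium uniporter, fell from 8.14 and 9.15 to 2.61 and 2.52 RPKM (−1.57 ± 0.18, limma adjusted p = 2.14e-17), and its paralog MCUB, a dominant-negative subunit, from 9.08 and 9.84 to 5.12 and 5.80 RPKM (−0.74 ± 0.18, adjusted p = 0.00016). STIM2, a calcium sensor of the endoplasmic reticulum, fell from 2.41 and 2.64 to 1.62 and 1.76 RPKM (−0.47 ± 0.19, adjusted p = 0.0364). The plasma membrane calcium pump gene ATP2B1 rose from 7.99 and 9.16 to 11.5 and 13.3 RPKM (0.51 ± 0.18, adjusted p = 0.0132). MCUB lost its call without knockdown replicate 1 (adjusted p = 0.121), and STIM2 and ATP2B1 failed in all 4 fits that left out a library (adjusted p from 0.0736 to 0.403).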

How the data were processed

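The deposited table gives RPKM for each library in its own column. Alignment was done with Bowtie 0.12.7 against hg19, per the submitters' processing notes. Nothing in the labels or header states the counting program, the read total or the use of strand. Every column was used (0 columns left out). Symbols came from the current table for 32172 IDs and from GENCODE 29 for 136, and 4217 IDs stayed unnamed. The steps of low values correspond to 1 read total per group, 41.9 M in control and 29.7 M in knockdown. With these totals 79.8% of 27570 low values came out as whole reads within 0.1. RPKM of the 2 libraries of a group thus still holds their difference in depth (column sums 162466 and 187293, 163078 and 180958). Estimated reads were whole for 6 members and are approximate for CAMK1D, CAMK2G, CAMKK1 and CAMKK2. Since the rest of the low values were not whole, no count test was run.

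limma 3.58.1 (R 4.3.3) was fitted to log2(RPKM + 0.5) of the 13627 genes whose mean reached 1 RPKM (group only, variance trend, Benjamini-Hochberg adjustment over all tested genes, threshold 0.05). limma found no spread of variance beyond its trend, so very small p-values rest on a shared variance. The fit was also run on simulated reads that held only counting spread and depth differences. That run is not reported here and does not check the p-values given above. With 2 against 2 libraries the smallest two-sided permutation p is 0.333, so none was run. Alternatives were other pseudocounts, filters and scaling, no trend, a replicate block and each library left out. Named genes are HNRNPM, the members, calmodulin genes, up to 4 genes of smallest p per list, and the 3 genes nearest to the highest and lowest member; exceptions are stated, and some results are not reported here. Members and lists were chosen with earlier results of these data known. The table held 0 genes of chromosomes 20, 21 and 22, which were not analysed here.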

Additional observations from a re-analysis of the deposited data

How the results depend on the processing

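Of 70 member values under other settings, 60 moved by less than the spread between libraries, 7 moved by more and 3 changed sign. With 2 libraries per group, leaving out 1 cannot move a value by more than that spread. For those settings only a change of sign could be seen, so the count of 60 is no measure of stability. With 1 library left out, CAMKK1 ranged from −0.13 to 0.19 and CAMK2B from −0.0084 to 0.0035, both around 0. The median over the members was −0.48 with a pseudocount of 0.1, −0.28 with 1, −0.29 with median-ratio scaling, and −0.41 to −0.29 with a library left out. The share of CAMK2D among CaMKII genes, with libraries left out as chosen after seeing the data, ran from 36.8% to 37.4% in the control and 71.5% to 73.2% in the knockdown libraries. With 2 libraries per group these are the shares of the single libraries given above, so they add no check.

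Among all genes, 2000 rose and 2964 fell. Without a filter limma called 262 and 255, with 0 and 2 pathway genes (16 and 26 at an unadjusted p below 0.05). Requiring a mean of 5 RPKM gave 1047 and 1321, with 3 and 8. Median-ratio scaling gave 4192 and 4122, with 25 and 22. Leaving out a library gave 759 to 1158 higher and 1057 to 2007 lower, with 4 to 5 and 8 to 11 pathway genes. Replicate numbers are shared between groups only as numbers. Across genes, same-numbered libraries deviated with r = 0.03, a measure that a shift common to all genes does not enter. Column sums were higher in replicate 2 of both groups (162466 and 187293 in control, 163078 and 180958 in knockdown). A replicate block takes up such a common shift. With the block 3109 rose and 4318 fell, with 17 and 20 pathway genes, which include the 22 called without it. The causes of these changes were not tested, except that fewer genes or libraries enter the filtered and reduced fits. RPKM depth limits CAMK1G and CAMK2B, at 6 reads or fewer per library.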
